A study of Homo sapiens with 8 samples.

Results

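SAS cells transfected with miR-629-3p were compared directly with SAS cells transfected with miR-874-3p, using whole-transcriptome arrays. SAS is a human cell line established from a squamous cell carcinoma of the tongue. The study asked which genes follow each of 3 miRNAs linked to cisplatin resistance, and the present comparison takes 4 of its 8 arrays, the 2 labelled miR-629-3p and the 2 labelled miR-874-3p. The other 4 arrays, from cells given miR-210-3p or a negative control RNA (NC), are shown beside the results as reference levels. Every group received 25 nM of synthetic RNA, a Dharmacon mimic for the miRNAs and an Applied Biosystems control for NC. The labels name the cells SAS grown with puromycin and place the extraction at 48 h, whereas the methods of the study name SAS/GFP cells and 24 h. All groups came from this 1 cell line, so the values describe SAS cells and no other tumor. Of 58201 gene probes on the array, 27138 were well above background on the 2 miR-629-3p arrays, the 2 miR-874-3p arrays, or all of them. A value on every array was present for 26676 of those, and 1 probe per gene name left 20819 of 43317 names for testing.

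MiRNAs are short noncoding RNAs that guide a silencing complex to mRNAs. Bases 2 to 8 of the mature strand, the seed, pair with complementary sites, mostly in 3′ untranslated regions, and the paired mRNA is degraded or its translation is repressed. A transfected mimic therefore lowers some mRNAs directly, and other genes follow at a distance through the proteins that change. In carcinoma cells both miRNAs have been studied as regulators of growth, migration and drug response. The mature strands as listed by RefSeq (GRCh38.p14) are shown with the seed in capitals, since the seed decides which sites each mimic can pair with.
hsa-miR-629-3p: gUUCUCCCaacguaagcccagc
hsa-miR-874-3p: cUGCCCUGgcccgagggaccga
The miR-629-3p strand comes from the minus strand at chr15:70079387-70079408, in an intron of TLE3, and the miR-874-3p strand from the minus strand at chr5:137647582-137647603, in an intron of KLHL3. The strands carry the same base at 8 of 22 positions, 3 of them within the seed. Their seeds pair with different sites, GGGAGAA for miR-629-3p and CAGGGCA for miR-874-3p.

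All 8 arrays lay on 1 slide. Its row 1 held the arrays of miR-629-3p with those of miR-210-3p, and its row 2 held the arrays of miR-874-3p with those of NC, so in the present comparison the transfected miRNA and the slide row cannot be told apart. Probes well above background made up 49.8% and 48.3% with miR-629-3p, against 46.8% and 43.1% with miR-874-3p. Spots set aside as outliers numbered 87 to 162 of 60901 in row 1 and 297 to 346 in row 2. Whether the row or the wider detection moved the counts was not tested. Replicate arrays differed by at least 2-fold in 272 genes for miR-629-3p and in 848 genes for miR-874-3p, against 1450 to 1806 genes for pairs of arrays taken from the compared groups. All 12 squamous epithelial markers, including KRT5, TP63 and ITGB4, were well above background on all 4 arrays. Of 6 fibroblast markers, COL1A1 and PDGFRB were well above background on all 4 arrays and COL1A2, COL3A1, DCN and LUM on none, and the summed linear signal of the 6 was 0.635 and 0.651 with miR-629-3p and 0.605 and 0.579 with miR-874-3p. Of 4 leukocyte markers on the array, PTPRC and CD14 were well above background on all 4 arrays and CD3E on 1 array of each miRNA, and the list summed to 2.93 and 2.67 against 2.57 and 3.80. Of 4 endothelial markers, PECAM1 was well above background on both miR-629-3p arrays and on no miR-874-3p array. KDR went the other way, well above background on 1 miR-874-3p array and on no miR-629-3p array. VWF and CDH5 were so on all 4 arrays, with CDH5 at -1.41 and -1.25 with miR-629-3p against -1.45 and -1.37. The summed linear signal of the 4 markers was 2.53 and 2.74 with miR-629-3p and 1.27 and 1.76 with miR-874-3p. PECAM1 and VWF were called higher with miR-629-3p. PECAM1 entered the test only through its detection with miR-629-3p, so its direction follows from that selection and is no independent evidence. The part of other cells in any result was not tested. In bulk RNA, fewer cells expressing a gene and less RNA per cell cannot be told apart. The labels do not say that replicates came from separate cultures, so p-values measure only the spread between these samples.

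A gene was called when its adjusted p from limma (Benjamini-Hochberg) was under 0.05 and its means differed by at least 2-fold. With miR-629-3p, 521 genes were higher (2.5% of the genes tested) and 344 were lower (1.65%), 865 in all (4.15%). At an unadjusted p under 0.05 with 2-fold the shares were 3.23% and 2.11% (5.35% in all), and at an adjusted p under 0.05 with any fold change they were 12.2% higher and 6.17% lower. The called set was therefore 60.2% higher. This split depended on the scaling of the arrays, since centring each array on its median probe gave 399 higher and 405 lower (49.6% higher) and quantile normalization gave 419 and 458 (47.8% higher). The median difference of all genes tested was 0.08 on the log2 scale, and 60.1% of genes lay above 0. All 4 arrays detected 305 of the genes called higher, and only the miR-629-3p arrays detected 179. Among the genes called lower, 230 were detected on all 4 arrays and 87 only with miR-874-3p. Of all genes tested, called or not, 18196 were detected on all 4 arrays, 1091 only with miR-629-3p and 118 only with miR-874-3p. Of the 521 higher genes 327 were protein-coding, as were 148 of the 344 lower genes. Leaving out miR-629-3p replicate 1 reduced the counts to 255 and 166, and leaving out its replicate 2 reduced them to 294 and 180. Without miR-874-3p replicate 1 they were 411 and 413, and without its replicate 2 they were 704 and 501.

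**Figure D1:**
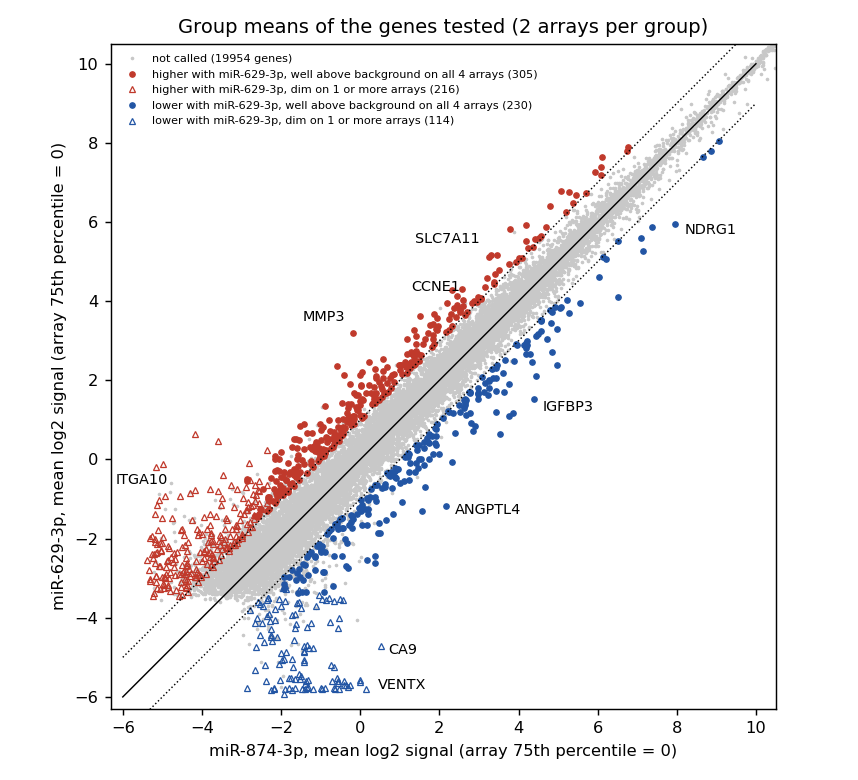
Mean log2 signal (array 75th percentile = 0) of each gene tested with miR-874-3p (x axis) and miR-629-3p (y axis), 2 arrays per group. Red and blue mark the 521 higher and 344 lower genes, open triangles those dim on at least 1 of the 4 arrays, and dotted lines a 2-fold difference. The called genes run along both sides of the diagonal at all levels, and the dim ones gather at the lower left.

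The NC arrays showed on which side most of these differences lay. Among the 305 higher genes measured on all 4 arrays, the NC mean was nearer to miR-874-3p in 272 (89.2%), and among the 230 lower genes it was nearer to miR-874-3p in 179 (77.8%). Over all 18196 genes tested that were measured on all 4 arrays, called or not, the NC mean was nearer to miR-874-3p in 65%. The median difference from NC of the higher genes was 1.28 (log2) with miR-629-3p and -0.08 with miR-874-3p, and that of the lower genes was -1.03 and 0.35. The miR-629-3p mean alone was at least 2-fold from NC in 198 of the 305 higher genes and in 121 of the 230 lower genes, whereas the miR-874-3p mean alone was that far in 7 and 22. Neither mean was 2-fold from NC in 91 higher and 80 lower genes, which passed the threshold only between the miRNAs. NC shares slide row 2 with miR-874-3p, and miR-210-3p shares row 1 with miR-629-3p. The miR-210-3p mean was nearer to miR-874-3p in 232 of the 305 higher genes (76.1%) and in 140 of the 230 lower genes (60.9%), against 57.0% of all genes so measured. For 49 higher and 54 lower genes each reference group lay nearer to the group in its own row, NC to miR-874-3p and miR-210-3p to miR-629-3p.

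**Figure D2:**
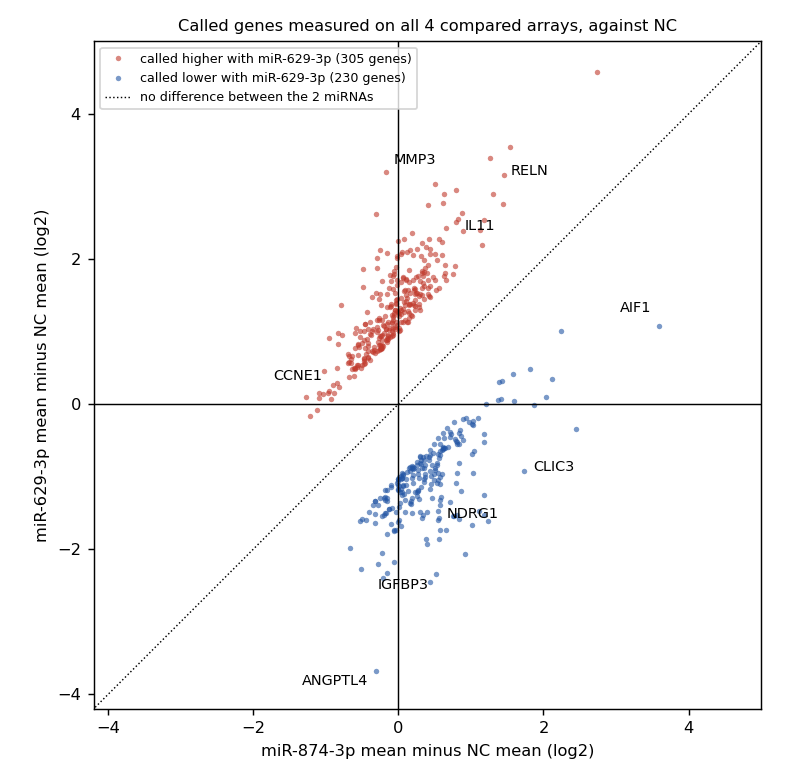
Difference from the NC mean (log2) with miR-874-3p (x axis) and with miR-629-3p (y axis) for the 535 called genes measured on all 4 compared arrays. Most red points (305 genes higher with miR-629-3p) and blue points (230 lower) lie along the vertical axis, where miR-874-3p is close to NC, and a few such as CCNE1 and AIF1 lie out along the horizontal axis.

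Matrix metalloproteinase 3 (MMP3, stromelysin), which degrades extracellular matrix, had the largest difference among the higher protein-coding genes measured on all 4 arrays. Its log2 signal was 3.29 and 3.09 with miR-629-3p, against -0.73 and 0.36 with miR-874-3p and 0.50 and -0.52 in NC. Both miR-629-3p values lay above all the others, and the difference of 3.37 (SE 0.45, adjusted p = 0.00879) was 10.4-fold. DDX60, an interferon-inducible RNA helicase, followed at 7.64-fold (adjusted p = 0.00854), with 1.97 and 2.74 against -0.97 and -0.19, and -0.11 and -0.44 in NC. C8orf46 (now VXN) was 5.02-fold higher (adjusted p = 0.000381) at 0.86 and 0.95 against -1.46 and -1.38. The miR-210-3p arrays lay in between, at -0.48 and -0.51, and NC was lowest, at -1.78 and -1.89. ANGPT2, a ligand of the TIE2 receptor on blood vessels, was 4.72-fold higher (adjusted p = 0.0010), with 0.15 and 0.03 against -2.18 and -2.12 and no more than -1.87 on any miR-210-3p or NC array. NEFL, the neurofilament light chain, was 4.30-fold higher (adjusted p = 0.00589). The other 5 of the leading 10 were FAM24B, ADRA1B (an adrenergic receptor), SLC7A7 (a cationic amino acid transporter), PSG1 (a pregnancy-specific glycoprotein) and GRHL3 (a transcription factor of epidermal differentiation), between 4.44-fold and 5.81-fold higher. When 1 miR-629-3p array was left out, with 3 residual degrees of freedom in place of 4, the calls of MMP3, ADRA1B and GRHL3 (replicate 1 or 2), SLC7A7 (either), PSG1 (replicate 1) and FAM24B (replicate 2) ended, although the differences stayed between 2.13 and 3.48, and SLC7A7 was also not called without either NC or either miR-210-3p array (adjusted p up to 0.157). The background correction normexp lowered ANGPT2 to 0.97 and PSG1 to 0.99, below the fold threshold.

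Several genes were well above background with only 1 of the compared miRNAs, and their difference is a bound, the bright mean over the dimmest detectable signal. Such genes passed the detection filter only through the group in which they are bright, so the direction of their difference follows from that selection. Here and below, their adjusted p belongs to the fitted difference against signal not well above background. It does not test the bound and is no independent evidence of a difference. Among genes detected with miR-629-3p and not with miR-874-3p, LURAP1L was at least 5.42-fold higher (adjusted p = 0.0191), ANKRD22 at least 5.00-fold (adjusted p = 0.00631) and DMBT1, a mucosal scavenger receptor, at least 4.69-fold (adjusted p = 0.0145). TET3, a 5-methylcytosine dioxygenase, had the largest such bound among protein-coding genes, at least 7.79-fold (adjusted p = 0.011), but its miR-629-3p arrays read 0.97 and -1.20 and a second probe of the gene, measured on all 4 arrays, differed by -0.30. Calls of LURAP1L and DMBT1 ended without miR-629-3p replicate 1 (fitted differences of 2.54 and 3.25) and without replicate 2 (2.72 and 3.65). That of LURAP1L also ended without miR-874-3p replicate 1 (2.31). With normexp the calls of LURAP1L, ANKRD22 and DMBT1 ended, at fitted differences of 0.79, 0.65 and 0.70.

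On the lower side, ANGPTL4, a secreted inhibitor of lipoprotein lipase, differed most among protein-coding genes measured on all 4 arrays. It read -1.15 and -1.21 with miR-629-3p, whereas its values were 2.37 and 1.99 for miR-874-3p, 3.20 and 3.01 for miR-210-3p, and 2.58 and 2.41 for NC. Both miR-629-3p values were below the other 6, and the difference of -3.36 (SE 0.15, adjusted p = 0.000931) was 10.3-fold. C10orf10 (now DEPP1), a FOXO-responsive gene, was 7.41-fold lower at 0.70 and 0.59 against 3.57 and 3.50 (adjusted p = 0.000381). IGFBP3, which binds insulin-like growth factors, was 7.27-fold lower at 1.62 and 1.45 against 4.51 and 4.29 (adjusted p = 0.00175). For both of these genes miR-210-3p lay between miR-629-3p and NC. CLIC3, an intracellular chloride channel protein, was 6.28-fold lower (adjusted p = 0.00425), and here the miR-874-3p arrays stood apart as well, at 3.41 and 4.10 against 2.11 and 1.93 in NC, 1.22 and 0.99 with miR-629-3p and 0.55 and 0.80 with miR-210-3p. AIF1 was 5.71-fold lower, with -0.68 and -0.70 for miR-874-3p and values of -3.01 or less on each of the other 6, of which both NC arrays and 1 miR-210-3p array were not well above background. KLF9, LBH, SLC2A3 and TREM1 were also among the leading 10, between 4.92-fold and 5.42-fold lower. A second TREM1 probe differed by only -0.43. Without miR-629-3p replicate 1 or replicate 2 the calls of AIF1, KLF9 and TREM1 ended (differences between -2.24 and -2.62, adjusted p up to 0.0844), and AIF1 was also not called without miR-874-3p replicate 1 (-2.50). Normexp ended the calls of AIF1 (-0.73), KLF9 (-0.92) and SLC2A3 (-0.64).

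Carbonic anhydrase 9 (CA9), a pH-regulating enzyme of hypoxic cells, had the largest bound among the lower protein-coding genes, at least 18.2-fold lower with miR-629-3p (adjusted p = 0.00596). It was not well above background on either miR-629-3p array and read 0.54 and 0.50 with miR-874-3p, whereas its values were -2.46 and -1.72 for miR-210-3p and -0.51 and -0.34 for NC. VENTX, a homeobox gene, was at least 14.2-fold lower (adjusted p = 0.00222), PSKH2 at least 12.7-fold (adjusted p = 0.0304), MYO3A, an actin-based motor, at least 8.85-fold (adjusted p = 0.000483) and ILDR2 at least 8.69-fold (adjusted p = 0.00902). These 4 genes were detected on the miR-874-3p arrays, where they lay between -1.69 and 0.82, and VENTX, MYO3A and ILDR2 were not well above background on any of the 6 other arrays. PSKH2 was detected on 1 NC array, at -1.30. With outlier spots kept, a setting that also chose the probe of each gene anew, ILDR2 differed by 0.33 (adjusted p = 0.856). Whether the spots or the choice of probe made this change was not tested. The call of PSKH2 ended without any 1 of the 6 miRNA arrays, and that of ILDR2 without either miR-629-3p array. The fitted differences there, between -4.86 and -6.26 for PSKH2 and at -4.95 and -5.14 for ILDR2, are taken against signals not well above background and are no bounds. With normexp the fitted ILDR2 difference was -0.97 and the gene was not called.

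**Figure D3:**
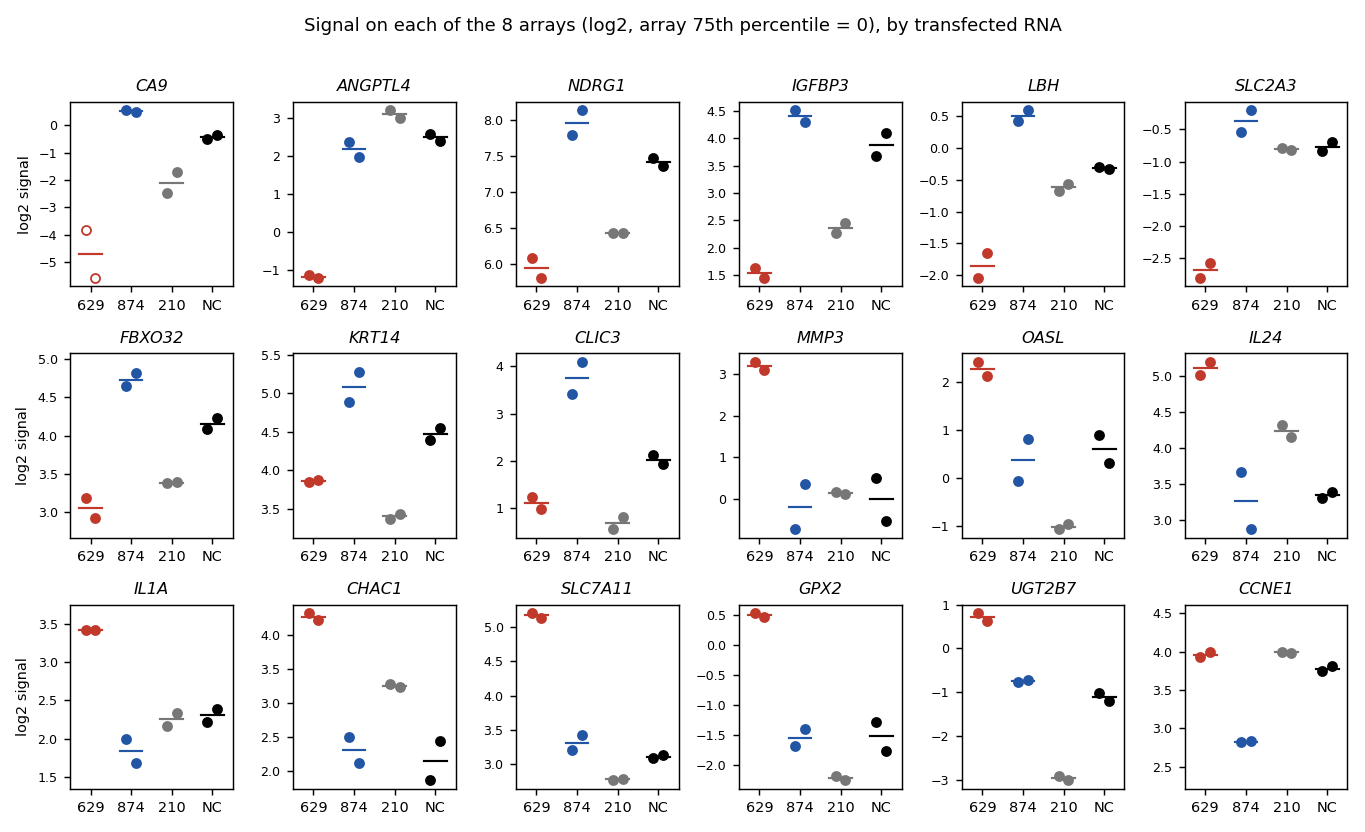
Log2 signal (array 75th percentile = 0) on each of the 8 arrays for 18 of the named genes, grouped by transfected RNA on the x axis, with a bar at the mean of the 2 arrays. Open points mark a group in which the gene was not well above background on both arrays. The miR-629-3p points lie apart from the miR-874-3p points in every panel. For CCNE1, miR-874-3p, at 2.83 on both arrays, stands below the other 3 groups, which lie close together. For IL1A the miR-874-3p points are also the lowest, but nearer to those of miR-210-3p and NC.

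The study put forward 34 putative targets of miR-629-3p, and 27 of them could be tested here. With miR-629-3p, 8 were called lower (29.6%, against 1.65% of all genes) and none higher, 17 were lower at an adjusted p under 0.05 with any fold change (against 6.17% of all genes), and the median difference was -0.77. The study selected these genes partly because they were lower on the same miR-629-3p arrays, so their direction is not independent evidence. It also measured them by qRT-PCR, set aside those with too little signal, and found some of the rest significantly lower in SAS cells. For PTP4A1 and INPP5A it reported suppression in other head and neck cancer lines as well. LBH, a transcriptional cofactor, was 5.07-fold lower (adjusted p = 0.00175), at -2.04 and -1.66 against 0.41 and 0.58, and a second probe differed by -1.41. SLC2A3, the glucose transporter GLUT3, was 4.99-fold lower (adjusted p = 0.00175) at -2.81 and -2.57 against -0.54 and -0.21, with -1.50 at a second probe. FBXO32, a ubiquitin ligase adaptor of muscle atrophy, was 3.18-fold lower (adjusted p = 0.00246) at 3.18 and 2.93 against 4.64 and 4.81. The study names FBXO32 as a candidate that its qRT-PCR did not bear out. The other called members were NDC1 (a nuclear pore protein), PPP1R3B (a glycogen-targeting phosphatase subunit), INPP5A (an inositol phosphatase), C15orf48 and STMN1 (a microtubule-destabilizing protein), from 2.0-fold to 2.35-fold lower. A second INPP5A probe differed by -0.62. In NC the means of these 5 genes lay nearer to miR-874-3p than to miR-629-3p. With miR-210-3p, FBXO32 read 3.38 and 3.39 and INPP5A 1.37 and 1.87, the latter beside 1.61 and 1.42 with miR-629-3p. The miR-210-3p means of these genes lay nearer to miR-629-3p, and those of the other called members nearer to miR-874-3p. Below the fold threshold, RAP2A and SLC25A13 differed by -0.94 (adjusted p = 0.00767 and 0.00385) and the phosphatase gene PTP4A1 by -0.88 (adjusted p = 0.00606). The median of the list relative to NC was -0.84 with miR-629-3p and -0.06 with miR-874-3p. The count fell to 5 without miR-629-3p replicate 2 and to 3 with normexp, and the calls of NDC1 (without miR-629-3p replicate 1), STMN1 (without miR-629-3p replicate 2 or miR-874-3p replicate 1), INPP5A (without either miR-629-3p array or miR-874-3p replicate 1) and C15orf48 (without replicate 2 of either miRNA) depended on 1 array, with differences there between -0.87 and -1.22. The members lost with normexp were SLC2A3 (-0.64), STMN1 (-0.99), INPP5A (-0.94), PPP1R3B (-0.87) and C15orf48 (-0.56).

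Of 14 genes reported elsewhere as targets of miR-874-3p, 13 were tested. All but HDAC1 (-0.18) and SPAG9 (-0.02) were positive, meaning lower with miR-874-3p, 10 were higher at an adjusted p under 0.05 with any fold change (76.9%, against 12.2% of all genes) and 1 also passed the fold threshold (7.69%, against 2.5%). The median difference was 0.53. This gene was CCNE1, cyclin E1, which drives entry into S phase. It read 3.93 and 4.0 with miR-629-3p and 2.83 on both miR-874-3p arrays, whereas its values were 4.0 and 3.99 for miR-210-3p and 3.75 and 3.81 for NC. Only the miR-874-3p arrays stood apart, and the difference was 2.19-fold (SE 0.07 on the log2 scale, adjusted p = 0.00175), called under each array left out. PPP1CA, a catalytic subunit of protein phosphatase 1, differed by 0.82 (adjusted p = 0.00904), ATG16L1, an autophagy protein, by 0.80 (adjusted p = 0.00385), and CDK9, a transcription elongation kinase, by 0.59 (adjusted p = 0.00791). Relative to NC, the median of the list was 0.16 with miR-629-3p and -0.24 with miR-874-3p. By array it was 0.15 and 0.20 with miR-629-3p and 0.24 and 0.19 with miR-210-3p, which shares its slide row. The level above NC was therefore not particular to miR-629-3p, and the part of the slide row in it was not tested. AQP3, a water and glycerol channel, differed by 1.44, but its miR-874-3p arrays read 1.00 and 2.35 and the adjusted p was 0.106. Without miR-874-3p replicate 2, and with normexp, 2 members were called.

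The host genes of the miRNAs were not called. TLE3, a transcriptional corepressor, read -1.34 and -1.47 with miR-629-3p against -0.95 and -1.03 (difference -0.41, adjusted p = 0.0216), and KLHL3, an adaptor of a ubiquitin ligase, read -1.05 and -0.98 against -1.70 and -1.46 (difference 0.57, adjusted p = 0.0201).

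The 60-base probes themselves were searched, on the strand listed, for the 7 letters that pair with each seed. GGGAGAA was present in 0.747% of the 58201 probes and CAGGGCA in 0.387%. Of the 26676 kept probes, 157 held the miR-629-3p match, and their median difference was 0.06 against 0.08 for all kept probes, while 47.1% lay below 0 (lower with miR-629-3p) against 39.7% of all. The 104 kept probes with the miR-874-3p match had a median of 0.11, and 61.5% of them were higher with miR-629-3p against 60.3% of all. Over the 4 pairings of arrays, the medians ran from 0.01 to 0.07 and from 0.09 to 0.16. Among the 120 genes tested through a probe with the miR-629-3p match, 2 were called lower (1.67%) and 3 higher (2.50%), and among the 82 with the miR-874-3p match, 3 were called higher (3.66%) and none lower. These shares were close to those of all genes, 1.65% and 2.5%. A probe covers a small part of its transcript, so a match in it describes the probe only, and sites elsewhere in the transcript were not looked for. The 5 genes called lower with the miRNA whose match their probe holds are shown here, with the match in capitals and the neighbouring letters of the probe on either side.
NDC1: tatactttaatGGGAGAAatca
INPP5A: aataatatcatGGGAGAAatag
SLC4A11: ttgctCAGGGCAgctt
ADAM19: tgtctgggatcCAGGGCAatgt
lnc-IL6-3: tatgactacctCAGGGCAagaa
On hg19 the array's annotation places these probes at chr1:54233479-54233538 (NDC1), chr10:134596451-134596510 (INPP5A), chr20:3208162-3208221 (SLC4A11), chr5:156904475-156904534 (ADAM19) and chr7:22631182-22631241 (lnc-IL6-3). NDC1 and INPP5A, both putative targets, were 2.35-fold (adjusted p = 0.0067) and 2.15-fold (adjusted p = 0.0185) lower with miR-629-3p. SLC4A11, a boron and proton transporter of the bicarbonate transporter family, was 3.59-fold higher with miR-629-3p than with miR-874-3p, at 1.80 and 1.93 against -0.29 and 0.32. NC lay at 0.63 and 0.04, so the miR-874-3p values overlapped with NC. ADAM19, a membrane metalloproteinase, was 2.26-fold higher at -0.33 and -0.55 against -1.30 and -1.94, and NC lay at -0.63 and -0.54, near miR-629-3p. The noncoding lnc-IL6-3 was 2.18-fold higher at 0.99 and 0.83 against -0.10 and -0.34, with NC in between at 0.13 and 0.11. A second lnc-IL6-3 probe differed by 0.85, below the fold threshold. Calls of SLC4A11 and ADAM19 ended without either miR-629-3p array (differences between 1.07 and 1.91), and that of ADAM19 also without miR-874-3p replicate 2 (0.85). ADAM19 (0.50), lnc-IL6-3 (0.75) and INPP5A (-0.94) were not called with normexp.

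Gene lists covering the biology of a squamous carcinoma cell under drug selection were then described by their counts and medians. Their members were read against the shares of all genes called, 2.5% higher and 1.65% lower (12.2% and 6.17% at an adjusted p under 0.05 with any fold change), and against the median of all genes, 0.08.

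**Figure D4:**
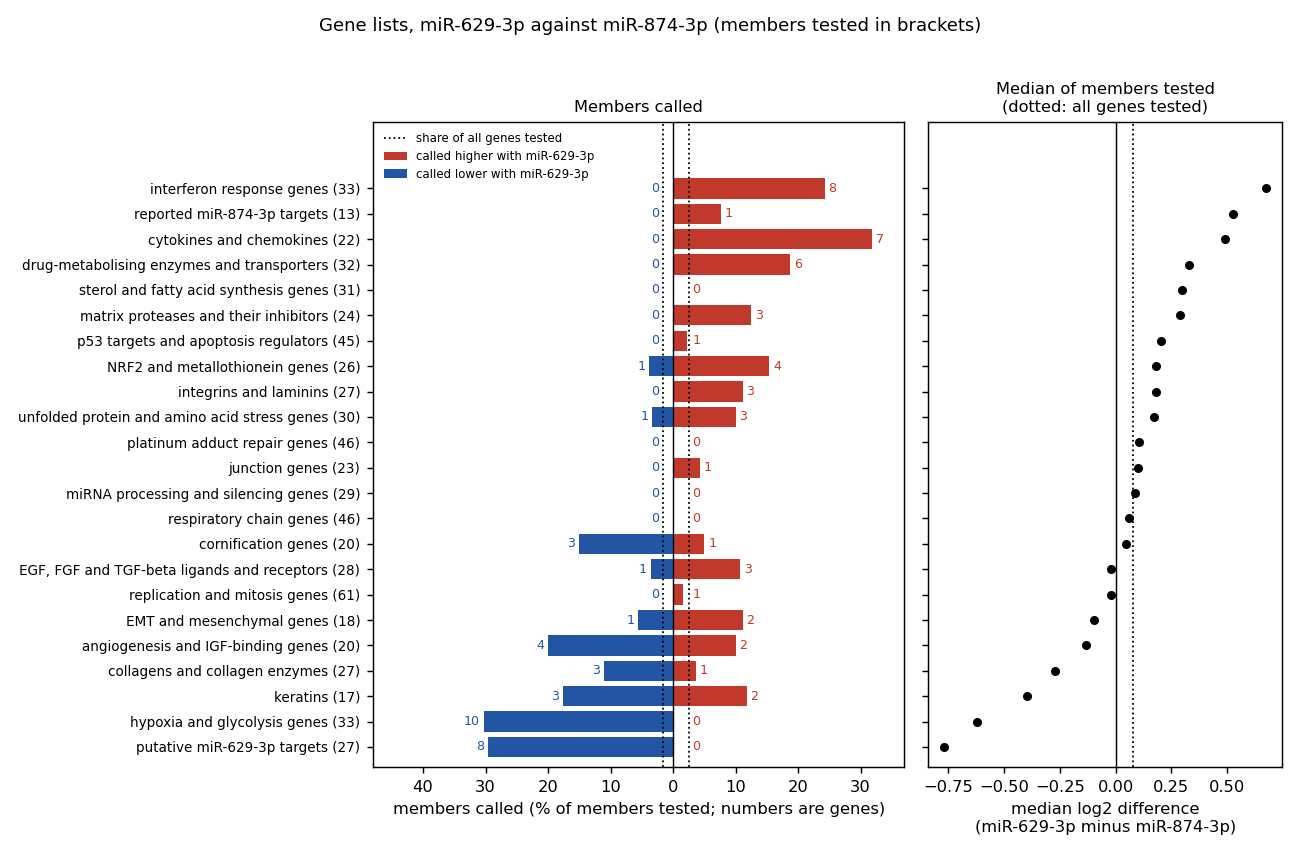
Share of tested members called higher (red, to the right) or lower (blue, to the left) with miR-629-3p for each gene list, with the number of genes beside each bar (left panel), and the median log2 difference of the members (right panel). Dotted lines give the shares and the median of all genes tested. The putative miR-629-3p targets (8 lower) and the hypoxia and glycolysis genes (10 lower) lie at the bottom, and the interferon response genes (8 higher) at the top.

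**Figure D5:**
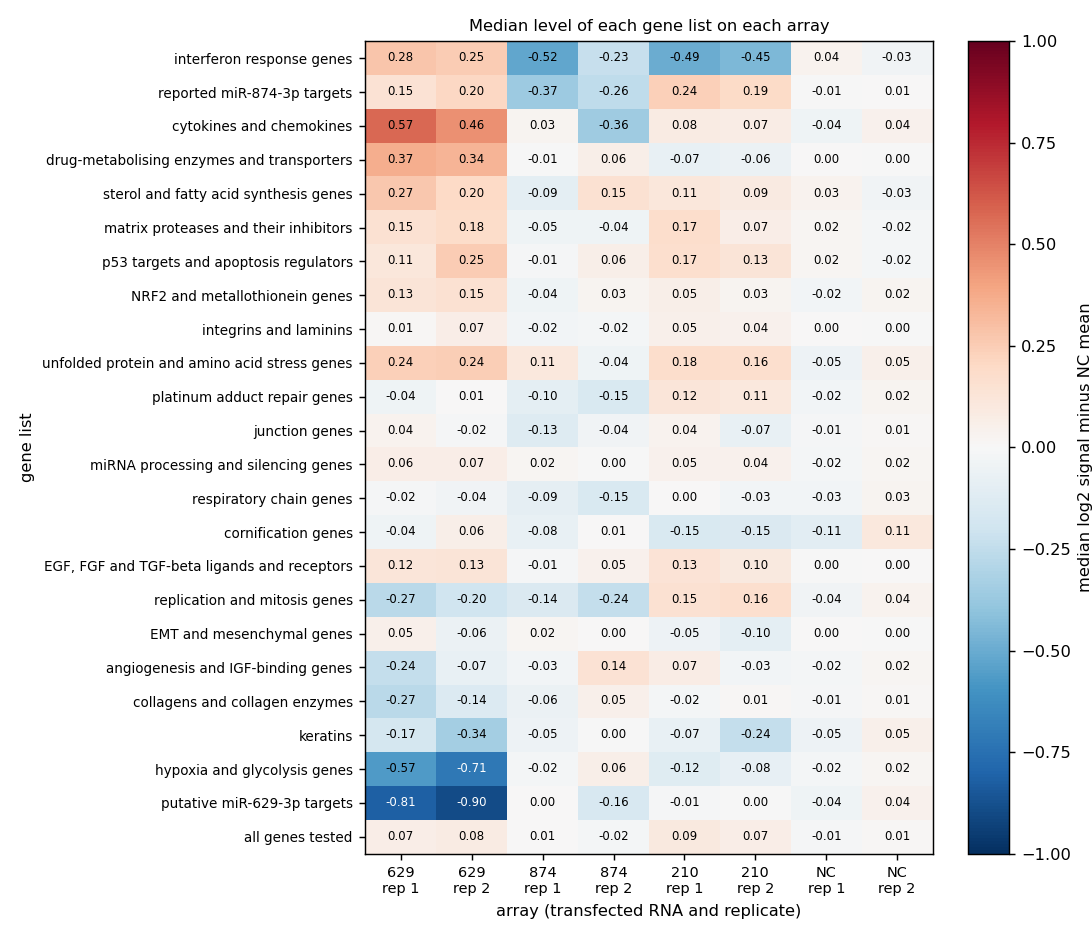
Median log2 signal of the tested members of each list on each array, relative to the mean of the 2 NC arrays, with lists ordered as by their median difference between the miRNAs. Red is above NC and blue below it. The hypoxia and glycolysis genes are at -0.57 and -0.71 for miR-629-3p and within 0.12 of NC on the miR-874-3p and miR-210-3p arrays, whereas the interferon response genes are above NC with miR-629-3p and below it with miR-874-3p and miR-210-3p.

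Of 33 hypoxia and glycolysis genes tested, 10 were called lower with miR-629-3p (30.3%) and none higher, and 23 were not called. In all 21 were lower at an adjusted p under 0.05 with any fold change and 1 was higher, and the median difference was -0.62. CA9 and SLC2A3 have been described above. NDRG1, a stress-induced gene that responds to low oxygen, was 4.04-fold lower (adjusted p = 0.00272), at 6.08 and 5.81 against 7.79 and 8.13, with 6.43 on both miR-210-3p arrays and 7.47 and 7.37 in NC. BNIP3, a mitochondrial protein of mitophagy, differed by -1.49 (adjusted p = 0.000981), and KDM3A, a histone demethylase induced by HIF, by -1.53 (adjusted p = 0.00384). P4HA1, a prolyl hydroxylase of collagen, was 2.62-fold lower and DDIT4, an inhibitor of mTORC1, 2.67-fold lower. The remaining called members were the glycolytic regulators PFKFB4 (-1.20) and PDK1 (-1.19) and the HIF target ANKRD37 (-1.17). Among members below the fold threshold, the glycolytic enzymes PGK1, LDHA and ENO1 differed by -0.99 (adjusted p = 0.00307), -0.68 (adjusted p = 0.00631) and -0.14 (adjusted p = 0.22). The glucose transporter SLC2A1 differed by -0.13 (adjusted p = 0.355). HIF1A, the oxygen-regulated subunit of HIF, was the 1 member higher at an adjusted p under 0.05, at 0.80 (adjusted p = 0.00457). Its signal was 5.48 and 5.36 with miR-629-3p and between 4.57 and 4.72 on the other 6 arrays. The list was at -0.61 relative to NC with miR-629-3p and at 0.03 with miR-874-3p. Between 9 and 11 members were called when each array was left out, and 6 with normexp.

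Genes of angiogenesis and IGF binding went both ways. Of 20 tested, 4 were called lower (ANGPTL4, IGFBP3, IGFBP1 and PGF) and 2 higher (ANGPT2 and VEGFC), with a median of -0.13 (0.01 when every probe was counted). IGFBP1 was 4.78-fold lower (adjusted p = 0.00623) and well above background on only 1 of the miR-629-3p arrays, at -3.61 and -3.87 against -1.47 and -1.50. PGF, placental growth factor, differed by -1.48 (adjusted p = 0.00133). VEGFC, a lymphatic growth factor, was 2.36-fold higher (adjusted p = 0.0124) at 6.71 and 6.65 against 5.18 and 5.70, and VEGFA differed by 0.36 (adjusted p = 0.0322). VEGFC was not called without either miR-629-3p array or miR-874-3p replicate 1 (1.21, 1.26 and 0.98), which left ANGPT2 as the 1 higher member. With normexp neither IGFBP1 (-0.49) nor ANGPT2 (0.97) was called.

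Of 33 interferon response genes tested, 8 were called higher with miR-629-3p (24.2%) and none lower, and 25 were not called. At an adjusted p under 0.05 with any fold change 19 were higher and 1 was lower, and the median difference was 0.68 (0.36 with normexp). OASL, an antiviral oligoadenylate synthetase-like protein, was 3.79-fold higher (adjusted p = 0.0168), at 2.43 and 2.14 against -0.07 and 0.81. It read 0.89 and 0.30 in NC and -1.08 and -0.98 with miR-210-3p. IFI44 was 3.32-fold higher (adjusted p = 0.00444) at 1.76 and 1.50 against -0.29 and 0.10, with 0.78 and 0.59 in NC. IFIT3 (1.38, adjusted p = 0.00385), IFIT1 (1.34, adjusted p = 0.00603), which binds foreign RNA, and HERC5 (1.36), an ISG15 ligase, were also called. The RNA sensor DDX58 (1.34), SAMD9L (1.00) and CMPK2 (1.58) were the other called members. ISG15 itself differed by 0.89 (adjusted p = 0.00945). BST2, which tethers virus particles, went the other way at -0.94 (adjusted p = 0.0211). Relative to NC the median was 0.27 with miR-629-3p and -0.32 with miR-874-3p, so the compared groups lay on opposite sides of NC. The count of called members was 3 without miR-629-3p replicate 1, 4 without its replicate 2, 4 without miR-874-3p replicate 1, 2 when only the 4 compared arrays entered the fit, and 5 with quantile normalization, median centring or normexp. OASL was not called without either miR-629-3p array (1.78 and 2.07), and CMPK2, well above background on 1 miR-874-3p array, was not called without either miR-629-3p array (1.58 for each), miR-874-3p replicate 1 (1.1) or either NC array (adjusted p up to 0.167). CMPK2 was also lost with normexp (0.49).

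Among 22 cytokines and chemokines tested, 7 were called higher (31.8%) and none lower, 15 were not called, and the median was 0.49 (0.75 without miR-874-3p replicate 1). IL24, an IL10-family cytokine, was 3.60-fold higher (adjusted p = 0.00945), at 5.02 and 5.20 against 3.66 and 2.87, with 3.30 and 3.38 in NC and a second probe at 2.13. IL11, a gp130 cytokine, was 3.29-fold higher (adjusted p = 0.00385) at 2.25 and 1.96 against 0.46 and 0.32, and it was highest with miR-210-3p (2.65 and 2.35) and lowest in NC (-0.42 and -0.39). IL1A was 2.98-fold higher (adjusted p = 0.00385) at 3.41 and 3.42, while the other 6 arrays lay between 1.68 and 2.39. IL6 differed by 1.34 (adjusted p = 0.00175), IL1B by 1.31 (adjusted p = 0.00269), TNF by 1.22 (adjusted p = 0.0111) and the neutrophil chemokine CXCL8 by 1.09 (adjusted p = 0.026). IL18 was below the fold threshold at 0.98 (adjusted p = 0.00295), and IL32 was lower at -0.66 (adjusted p = 0.0146). Relative to NC the list lay at 0.57 and 0.46 with miR-629-3p, against 0.03 and -0.36 with miR-874-3p. Without miR-629-3p replicate 1 the count was 4, and IL24 was not called without either miR-629-3p array (1.94 and 1.76).

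Of 24 matrix proteases and their inhibitors, 3 were called higher (12.5%) and none lower, with a median of 0.29. Beside MMP3, these were TIMP4, an inhibitor of metalloproteinases, 2.65-fold higher (adjusted p = 0.00289) at 3.49 and 3.28 against 1.98 and 1.97, and PLAU, urokinase, 2.15-fold higher (adjusted p = 0.00252) at 7.15 and 7.23 against 6.16 and 6.02. A second PLAU probe differed by 1.14. PLAU was highest with miR-210-3p, at 7.63 and 7.62, and lay at 6.72 and 6.68 in NC. MMP1, an interstitial collagenase, differed by 0.81 (adjusted p = 0.037) and MMP9, a gelatinase, by -0.32 (adjusted p = 0.189).

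Growth factors of the EGF, FGF and TGF-beta families gave 3 higher and 1 lower of 28, with a median of -0.02 (0.10 and 0.04 without miR-874-3p replicate 1 and 2). FGF2 was 2.94-fold higher (adjusted p = 0.00837) at 1.09 and 0.89 against -0.63 and -0.50, with 1.84 at a second probe. FST, which binds activin, was 2.13-fold higher (adjusted p = 0.00222), and GDF15, a stress-induced TGF-beta family member, was 2.06-fold higher (adjusted p = 0.00425). The receptor FGFR3 was 2.59-fold lower (adjusted p = 0.0198) at 2.08 and 2.05 against 3.06 and 3.82, a second probe differed by -1.18, and FGFR3 lay at 2.23 and 2.11 with miR-210-3p and 3.24 and 2.92 in NC. Without miR-629-3p replicate 1 only FST was called (FGF2 at 1.45, GDF15 at 0.97, FGFR3 at -1.39), without its replicate 2 FGFR3 was not (-1.36), without miR-874-3p replicate 1 GDF15 was not (1.00), and without miR-874-3p replicate 2 there were 6 higher members and none lower (FGFR3 at -1.0). FGF2 (0.95) and GDF15 (0.99) fell below the fold threshold with normexp.

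Of 30 genes of the unfolded protein and amino acid response, 3 were called higher and 1, DDIT4, lower, and the median was 0.17 (0.26 and 0.06 without miR-874-3p replicate 1 and 2, and 0.08 with median centring). CHAC1, which degrades glutathione, was 3.89-fold higher (adjusted p = 0.00617), at 4.33 and 4.22 against 2.50 and 2.12, with 1.86 and 2.43 in NC and 1.68 at a second probe. SLC7A11, the cystine importer that supplies glutathione synthesis, was 3.62-fold higher (adjusted p = 0.0012), at 5.21 and 5.14, while the other 6 arrays lay between 2.76 and 3.43. DDIT3, the stress transcription factor CHOP, was 2.41-fold higher (adjusted p = 0.00137) at 2.29 and 2.25 against 1.03 and 0.98. The chaperone HSPA5 (0.44, adjusted p = 0.131), TRIB3 (-0.07, adjusted p = 0.655) and ASNS (0.32, adjusted p = 0.406) did not pass the test. Of 26 NRF2 targets and metallothioneins, 4 were called higher (SLC7A11, GPX2, HMOX1 and AKR1C1) and 1 lower (MT1X). GPX2, a glutathione peroxidase, was 4.10-fold higher (adjusted p = 0.0041) at 0.53 and 0.46 against -1.68 and -1.40, and HMOX1, heme oxygenase, differed by 1.54 (adjusted p = 0.0249). AKR1C1, an aldo-keto reductase, was detected with miR-629-3p only, and its bound was 1.68-fold, below the fold threshold. Its call (adjusted p = 0.0285) rested on a fitted 4.96-fold difference against signal not well above background. NQO1 differed by 0.69 (adjusted p = 0.00493) and the glutathione synthesis genes GCLC and GCLM by 0.29 and 0.17 (adjusted p = 0.208 and 0.176). MT1X was 2.09-fold lower (adjusted p = 0.00632), and was not called without miR-874-3p replicate 2 (-0.98). The 4 higher NRF2 members became 2 without either miR-629-3p array or without miR-874-3p replicate 1, with AKR1C1 among those lost (fitted differences of 2.21, 2.41 and 1.78). AKR1C1 was also not called without either NC array, and with normexp AKR1C1 (fitted difference 0.29) and GPX2 (0.97) lost their calls.

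Drug-metabolising enzymes and transporters gave 6 higher members and none lower of 32 tested (18.8%), with a median of 0.33 (0.20 with normexp and 0.22 with quantile normalization). The lowest member differed by -1.50 and was not called. At an unadjusted p under 0.05 with 2-fold, 1 member was lower. UGT2B7, a glucuronosyltransferase, was 2.77-fold higher (adjusted p = 0.00246) at 0.81 and 0.63 against -0.77 and -0.73, with -1.01 and -1.19 in NC and -2.92 and -3.02 with miR-210-3p. UGT2B10 was 2.79-fold higher (adjusted p = 0.0139) and UGT2B11 3.52-fold higher (adjusted p = 0.0216), the latter well above background on only 1 miR-874-3p array. The UGT2B genes are close in sequence, and cross-hybridisation between their probes was not tested. The cytochromes P450 CYP1A1 (1.21, adjusted p = 0.00292), CYP3A7 (1.32, adjusted p = 0.0397) and CYP1B1 (1.22, adjusted p = 0.0466) were the other called members. The platinum-related transporters were below the fold threshold, with SLC31A1 at 0.33 (adjusted p = 0.0972), SLC31A2 at 0.80 (adjusted p = 0.0175), ATP7A at 0.60 (adjusted p = 0.0311), ATP7B at 0.05 (adjusted p = 0.772) and ABCC2 at 0.67 (adjusted p = 0.0141). Without either miR-629-3p array 2 members were called, and without miR-874-3p replicate 1 there were 3. UGT2B10 was not called without either miR-629-3p array (1.41 and 1.54), and UGT2B11 was not called without either of them (1.92 and 1.71) or without miR-874-3p replicate 1 (1.43). Normexp ended the calls of UGT2B7 (0.77) and UGT2B11 (0.55).

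Among 17 keratins, 3 were called lower and 2 higher, with a median of -0.40 (-0.07 with normexp), and 7 were lower at an adjusted p under 0.05 with any fold change (41.2%, against 6.17% of all genes). KRT17 was 2.36-fold lower (adjusted p = 0.00489) at 3.81 and 3.82 against 4.91 and 5.21, with 4.36 and 4.54 in NC. The miR-210-3p arrays read lower still for KRT17, at 3.45 and 3.50. KRT14, the basal keratinocyte keratin, was 2.34-fold lower (adjusted p = 0.00641) with values within 0.0811 of those of KRT17 on every array, and a second KRT14 probe differed by -0.63. Cross-hybridisation between these similar sequences was not tested. KRT19, a simple-epithelium keratin, was 2.04-fold lower (adjusted p = 0.0119), and KRT5, the partner of KRT14, differed by 0.32 (adjusted p = 0.284). KRT86 and KRT80 were 2.74-fold (adjusted p = 0.00456) and 2.13-fold (adjusted p = 0.00641) higher. For each called keratin the miR-210-3p mean lay nearer to miR-629-3p than to miR-874-3p. KRT19 was not called without either miR-629-3p array (-0.99 and -1.07) or miR-874-3p replicate 2 (-0.80), and KRT80 was not called without miR-874-3p replicate 1 (0.95).

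Of 20 cornification genes, the kallikrein proteases KLK13, KLK8 and KLK7 were called lower, by 3.72-fold (adjusted p = 0.00642), 2.26-fold (adjusted p = 0.00486) and 2.03-fold (adjusted p = 0.0136), and involucrin (IVL), a cornified envelope precursor, was 2.45-fold higher (adjusted p = 0.0188). The list median was 0.05 (-0.02 with quantile normalization, -0.04 with median centring and -0.09 without miR-629-3p replicate 2), and KLK5 (-0.81, adjusted p = 0.00845) and KLK6 (-0.74, adjusted p = 0.00878) were also lower below the fold threshold. KLK8 read 4.02 and 4.05 against 5.20 and 5.22, with 4.50 and 4.61 for miR-210-3p and 4.78 and 5.09 in NC. The miR-210-3p means of KLK13, KLK8 and KLK7 lay nearer to miR-629-3p than to miR-874-3p, and that of IVL nearer to miR-874-3p. IVL was not called without either miR-629-3p array (1.44 and 1.14) or miR-874-3p replicate 1 (1.16), and KLK7 was not called without replicate 2 of either miRNA (-0.80 and -0.96). With normexp KLK13 (-0.54), KLK7 (-0.44) and IVL (0.46) were not called. Of 23 junction genes only CLDN4, a tight junction protein, was called, 2.20-fold higher (adjusted p = 0.00634) at 7.86 and 7.95 against 6.64 and 6.89, and without miR-874-3p replicate 2 there were 2. E-cadherin (CDH1) differed by -0.50 (adjusted p = 0.0382).

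EMT and mesenchymal genes showed no common direction. Of 18 tested, VCAN, a matrix proteoglycan, and CDH11, a mesenchymal cadherin, were called higher, by 2.38-fold (adjusted p = 0.0187) and 2.33-fold (adjusted p = 0.0058), and LOX, a collagen crosslinking enzyme, lower by 2.48-fold (adjusted p = 0.0277). The list median was -0.10 (-0.19 with median centring). CDH11 read 0.70 and 0.76 against -0.60 and -0.39, with 0.39 and 0.30 for miR-210-3p and -0.26 and -0.57 in NC. The transcription factors SNAI2 and TWIST1 differed by 0.59 (adjusted p = 0.00641) and 0.63 (adjusted p = 0.00689), N-cadherin (CDH2) by -0.77 (adjusted p = 0.0147), and vimentin (VIM) and fibronectin (FN1) by -0.66 and -0.48 (adjusted p = 0.0978 and 0.103). VCAN was not called without either miR-629-3p array (1.17 and 1.33) or miR-874-3p replicate 1 (1.02). LOX was not called without any of these 3 arrays (-1.21, -1.42 and -0.94) or either miR-210-3p array (-1.31), and without miR-874-3p replicate 2 there were 4 higher members. None of the 3 called genes passed with normexp, at 0.73 for VCAN, 0.74 for CDH11 and -0.42 for LOX.

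Of 27 collagens and collagen-processing enzymes tested, P4HA1, LOX and COL4A1 were called lower and COL4A4 higher, 9 were lower at an adjusted p under 0.05 with any fold change (33.3%) and the median was -0.27 (-0.12 with normexp). COL4A1, a basement membrane collagen, was 2.17-fold lower (adjusted p = 0.0038), at 0.41 and 0.32 against 1.56 and 1.40, with 1.69 and 1.83 in NC. COL6A1 and COL5A1 were lower below the fold threshold, at -0.92 (adjusted p = 0.00256) and -0.87 (adjusted p = 0.00486). COL4A4 was detected with miR-629-3p only, and its bound was 1.09-fold, below the fold threshold. Its call (adjusted p = 0.0445) rested on a fitted 2.55-fold difference against signal not well above background. COL4A4 lost this call without any of 7 of the 8 arrays. Median centring called 5 members lower and normexp 1, with COL4A1 (-0.83), LOX (-0.42) and COL4A4 (0.14) not called there. Of 27 integrins and laminins, ITGA10, a collagen-binding integrin chain, ITGB8, which activates TGF-beta, and LAMA2, a laminin chain, were called higher and none lower. ITGA10 was detected with miR-629-3p only among the compared arrays, at -0.86 and -0.97, and was at least 4.49-fold higher (adjusted p = 0.000381). It was also detected on both miR-210-3p arrays, at -2.86 and -2.76. LAMA2 was 2.42-fold higher (adjusted p = 0.00928) and was not called without miR-629-3p replicate 1 (1.18). ITGB8 was 2.80-fold higher (adjusted p = 0.0462) at 3.23 and 3.16 against 1.17 and 2.25, and lost its call without any array but miR-874-3p replicate 2 (adjusted p up to 0.17). Normexp ended the calls of ITGA10 (fitted difference 0.71) and LAMA2 (0.63).

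Few members of the remaining lists were called. Of 61 replication and mitosis genes, CCNE1 alone was called (1.64%) and the median was -0.02 (0.02 without replicate 1 of either miRNA), but against NC the list was at -0.22 with miR-629-3p and -0.20 with miR-874-3p, so both groups lay below NC by a like amount. Of 46 genes for the repair of platinum adducts none was called, and 7 were higher at an adjusted p under 0.05 with any fold change (15.2%, near the 12.2% of all genes). The median of the list was 0.11 (0.05 without miR-874-3p replicate 2). The nuclease subunit ERCC4 differed by 0.94 (adjusted p = 0.0201) and was called without miR-874-3p replicate 2 (1.14). Of 45 p53 targets and apoptosis regulators, GADD45A, a stress sensor, was called, 2.16-fold higher (adjusted p = 0.00734), and 3 members were called without miR-874-3p replicate 2. GADD45A itself was not called without either miR-629-3p array (1.11 and 1.12) or without miR-874-3p replicate 2 (0.94). MDM2, the ubiquitin ligase of p53, differed by 0.97 (adjusted p = 0.00425). No member was called among 46 respiratory chain genes (median 0.06), 31 sterol and fatty acid synthesis genes (0.30) or 29 genes of miRNA processing and silencing (0.09), although the sterol genes PMVK and SC5D were called higher without miR-629-3p replicate 1 (1.04 and 2.26), and PMVK without miR-874-3p replicate 2 (1.01). Without miR-874-3p replicate 1 the sterol median was 0.08, against 0.09 for all genes. The respiratory chain median was -0.03 with median centring, and that of the silencing genes was -0.0038. In the last list DICER1, which cuts miRNA precursors, differed by -0.55 (adjusted p = 0.0123), and AGO2, the slicing argonaute, by 0.11 (adjusted p = 0.44).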

How the data were processed

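Total RNA (100 ng) of each sample was labelled with Cy3 and hybridised to an Agilent 60-base oligonucleotide array with hg19 probe annotation. The deposited scanner files hold the background-subtracted intensity of each spot, made by the authors with Feature Extraction 11.5.1.1. The authors also deposited a log2 table scaled to the 75th percentile, which served as an alternative. Here outlier spots were left out, spots of 1 probe averaged, log2 intensities centred on each array's 75th percentile, and 1 probe kept per gene. No spot was saturated, and 2 arrays per group limit the precision. All 8 arrays were fitted in limma 3.58.1 (R 4.3.3) with 1 mean per group, and p-values were adjusted by Benjamini-Hochberg over 20819 genes. With 2 against 2 arrays an exact two-sided permutation test cannot go below p = 0.333. Tested on simulated data for this comparison (20819 genes, 200 changed), the fit called 33% of genes changed by 1 (log2) and 85% of those changed by 2. A bound sets the bright mean against the higher of the dimmest detected signal and the dim probe's own. The genes described with per-array values were, by rule, the 10 protein-coding genes with the largest change in each direction, the 5 with the largest bound, up to 3 called members per list and direction, all called members of the target lists, the host genes, and up to 3 called genes per seed match. Other list members were chosen for mention after their values were seen. The members and lists were chosen with earlier results of these data known. Alternatives covered background, scaling, detection, probe choice, the fit and each array left out. Sites outside the probes were not analysed here. Some genes that met the rule are not reported here.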

Additional observations from a re-analysis of the deposited data

How the results depend on the processing

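The 521 higher and 344 lower genes became 127 and 113 with normexp, 268 and 143 with only the 4 compared arrays in the fit, 343 higher without a detection filter, 317 higher when all 4 arrays had to detect the gene, and 2546 and 1284 at an adjusted p under 0.05 with any fold change. The methods' t-test called 0 higher and 0 lower genes after Benjamini-Hochberg, against 4442 genes at an unadjusted p under 0.05 and 429 higher and 251 lower genes at that p with 2-fold. Leaving out 1 array gave 255 to 704 higher and 166 to 501 lower genes. Of the 865 calls, 341 were shared without miR-629-3p replicate 1, 393 without its replicate 2 and 229 with normexp. The replicate numbers did not pair the samples (r = 0.02 between the deviations of the compared groups), and a replicate block gave 436 and 300. Under that block the interferon count was 5. The median difference of probes with the miR-629-3p seed match (0.0562) was 0.0240 with normexp, -0.0245 with quantile normalization, -0.0330 with median centring, -0.297 without a detection filter and 0.00949 to 0.0439 with 1 array left out. That of probes with the miR-874-3p match (0.107) was 0.0553, 0.0439, 0.0178 and -0.0766 in the same settings, -0.0164 for an 8-base match and 0.109 to 0.155 with 1 array left out. TET3 reversed to -0.30 when all 4 arrays had to detect the probe, a setting that took the second probe of the gene. ILDR2 reversed to 0.33 with outlier spots kept, a setting that also chose the probe of each gene anew. The cause of the ILDR2 reversal was not tested. Of 85 called genes described with per-array values, 44 kept their call without each of the 8 arrays in turn, and 28 kept it in every alternative run but the t-test. Without a detection filter the interferon count was 3, the drug metabolism count 3 and the NRF2 count 2. The drug metabolism count was 2 with normexp or with only the 4 compared arrays. Signals near background limit the genes detected with 1 miRNA only, for which normexp lowers the differences by construction.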

Other observations

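Transcripts without a protein-coding match were called too. Of 1376 lncRNA genes tested, 46 were higher (3.34%) and 19 lower (1.38%) with miR-629-3p, and of 5555 array names with no RefSeq match, 144 were higher (2.59%) and 109 lower (1.96%), against 327 (2.47%) and 148 (1.12%) of 13246 protein-coding genes. These classes do not add up to the 20819 genes tested or to the 521 higher and 344 lower genes. The remaining genes, of other RefSeq types, were called lower more often than higher, and lower at a larger share than any class above.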
